A study of Mus musculus with 23 samples.

Results

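The genes described here encode the oxidative phosphorylation machinery of mouse cortex. They were taken by symbol from a table of read counts per gene: symbols starting Ndufa, Ndufb, Ndufc, Ndufs, Ndufv, Uqcr, Cox4 to Cox8 or Atp5, the genes Sdha, Sdhb, Sdhc and Sdhd, and the protein-coding genes of the mitochondrial chromosome, without symbols marked as pseudogenes. The rule used no measured value and found 106 of 39017 genes, 93 in the nucleus and 13 on the mitochondrial chromosome. The nuclear members were 36 genes of complex I, 7 complex I assembly factors (Ndufaf genes), 4 of complex II, 8 of complex III, 20 of complex IV, 16 of complex V, and Atp5s and Atp5sl, which carry the name of complex V. The mitochondrial members were 7 genes of complex I, 1 of complex III, 3 of complex IV and 2 of complex V. Atp5l2 met the rule by its symbol but is marked as a pseudogene in GENCODE M21, and Atp5sl is named Dmac2 there.

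The study compared cortex of mice with a substitution at glycine 34 of histone H3.3, made at the H3f3a gene. At 10 weeks there were 3 animals labelled Hf3fa+/G34R, 3 labelled Hf3fa+/G34V, 2 labelled Hf3fa+/G34W and 6 wild-type (WT) animals labelled Hf3fa+/+. At postnatal day 7 (P7) there were 4 animals labelled H3f3a G34R/+ and 4 labelled H3f3a +/+. Of the 10-week animals, 1 (G34W replicate 2) carries a female label, although its title starts with M like those of the animals labelled male, and the others carry a male label, and each P7 group held 2 males and 2 females. WT replicate 3 at 10 weeks had 2 libraries, which were summed unless stated otherwise. Every mutant kept 1 normal H3f3a allele, and the labels give no strain, founder or litter. H3f3a averaged 43.1 ± 2.04 CPM (counts scaled to library size) in G34R, 41.5 ± 1.89 in G34V, 42.1 ± 5.22 in G34W and 45.2 ± 3.82 CPM in WT at 10 weeks (SD); at P7 it had 60.8 ± 1.78 CPM in G34R (59.3 to 63.3), against 72.6 ± 3.05 CPM in WT (69.8 to 75.5), without overlap. Counts per gene do not show the substitution itself.

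Oxidative phosphorylation passes electrons from NADH (complex I) and succinate (complex II) through complex III to oxygen at complex IV, and complex V makes ATP from the proton gradient that this builds. Complexes I, III, IV and V hold subunits of both genomes, and complex II is nuclear throughout. Mitochondrial mRNAs are cut from long transcripts of each strand of a circular chromosome, while each nuclear subunit has its own promoter. Neurons draw most of their ATP from this pathway.

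Several mitochondrial members have near-identical copies in the nuclear genome, and these are shown first because they limit what a count can mean. On chromosome 1 of GRCm38, GENCODE M21 lists a block of unprocessed pseudogenes at chr1:24611535-24616197, minus strand, with copies of 7 of the 13 genes. The copies of mt-Co2, mt-Atp6, mt-Co3, mt-Nd4l and of the first 876 bases of mt-Nd4 had no substitution over the aligned bases. The copy of the last 483 bases of mt-Co1 had 1, A1066T, and the copy of mt-Nd3, Gm28438, had 1 over 345 bases, T3C. In these the base of the mitochondrial gene comes first, then its position counted from 1 at the gene's 5′ end, then the base of the copy. The first 60 bases of mt-Nd3 and of its copy are printed because mt-Nd3 differed between ages in the direction opposite to the other mitochondrial members that passed the test; the capital marks position 3.
mt-Nd3 (chrM:9459-9518, plus strand): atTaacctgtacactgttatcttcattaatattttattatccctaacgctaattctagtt
Gm28438 (chr1:24613060-24613119, minus strand): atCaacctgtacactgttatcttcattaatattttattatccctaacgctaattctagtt
A read tells this pair apart within these 60 bases only where it covers position 3. Of all 50-base words of a gene's transcripts, the share found in no other M21 gene was 0% for mt-Co2, 0.136% for mt-Co3, 0.475% for mt-Atp6, 1.21% for mt-Nd4l, 2.01% for mt-Nd3, 37.8% for mt-Nd4 and 48.9% for mt-Co1. It was 91.8% for mt-Nd2, 92.4% for mt-Nd5 and 100% for mt-Nd1, mt-Nd6, mt-Cytb and mt-Atp8. Only transcripts of M21 genes were searched, so bases of the block outside the listed copies were not covered. This matters for mt-Atp8 (chrM:7766-7969), which lies between mt-Co2 and mt-Atp6 and overlaps the start of mt-Atp6 (chrM:7927). In the block the copies of these neighbours lie at chr1:24614885-24615565 and chr1:24613974-24614651, on either side of a stretch without a listed copy. Of the 7 copies only Gm10222, that of mt-Nd4l, has a row among the deposited counts, with 36 to 125 counts per library. How reads that match both places were counted is not given in the sources used here, so the levels of mt-Co2, mt-Co3, mt-Atp6, mt-Nd4l, mt-Nd3, mt-Nd4 and mt-Co1 are uncertain.

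In WT cortex at 10 weeks the highest levels per kilobase of exon belonged to mitochondrial genes. mt-Co1, the catalytic core of complex IV, averaged 5257 CPM per kb, mt-Nd1 of complex I 1486 and mt-Cytb of complex III 862 CPM per kb. The rank of mt-Co1 among mitochondrial genes is uncertain, because it and others share words with the chromosome 1 block. The highest nuclear members on this scale were Cox8a with 374, Atp5a1 with 267, Atp5b with 246, Cox4i1 with 242 and Cox6a1 with 241 CPM per kb. Atp5a1 and Atp5b form the catalytic head of complex V. The length used is that of all annotated exons of a gene together, which can exceed that of 1 mRNA. It was 619 bases for Cox8a and 4237 for Atp5b, so ranks of nuclear members depend on the annotation. In complex I the highest nuclear members were Ndufb9 with 119 and Ndufa1 with 87.3, in complex II Sdha with 90.9 and Sdhd with 49.5, and in complex III Uqcr11 with 109 and Uqcr10 with 105 CPM per kb.

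Summed over the 13 mitochondrial genes, levels were 9630 ± 705 CPM in G34R (n = 3), 11958 ± 829 in G34V (n = 3), 15203 ± 2223 in G34W (n = 2) and 12049 ± 1689 CPM in WT (n = 6) at 10 weeks, and 7457 ± 506 in G34R and 7085 ± 579 CPM in WT at P7 (SD, n = 4 each). Summed over the 93 nuclear genes, they were 8066 ± 51.0 CPM in G34R, 8182 ± 198 in G34V, 8772 ± 1111 in G34W and 8623 ± 361 CPM in WT at 10 weeks, and 6844 ± 155 in G34R and 6855 ± 222 CPM in WT at P7. Mitochondrial members varied more among animals of 1 group, by the median coefficient of variation over genes with a mean of at least 1 CPM. In WT at 10 weeks it was 18.7% over the 13 mitochondrial genes and 6.13% over 88 nuclear genes. In G34W the 2 values were close, 14.9% over the 13 mitochondrial and 13.8% over 89 nuclear genes. The nuclear sum divided by the mitochondrial sum was 0.840 ± 0.0588 in G34R, 0.686 ± 0.0298 in G34V, 0.578 ± 0.0114 in G34W and 0.729 ± 0.123 in WT at 10 weeks, and 0.920 ± 0.0567 in G34R and 0.972 ± 0.0790 in WT at P7. WT animals at 10 weeks spanned 0.588 to 0.931, a range that held all G34R and G34V animals. Without mt-Co1 the ratio was 2.25 ± 0.447 in WT at 10 weeks, against 2.36 ± 0.248 in WT at P7, a difference smaller than either SD.

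**Figure D1:**
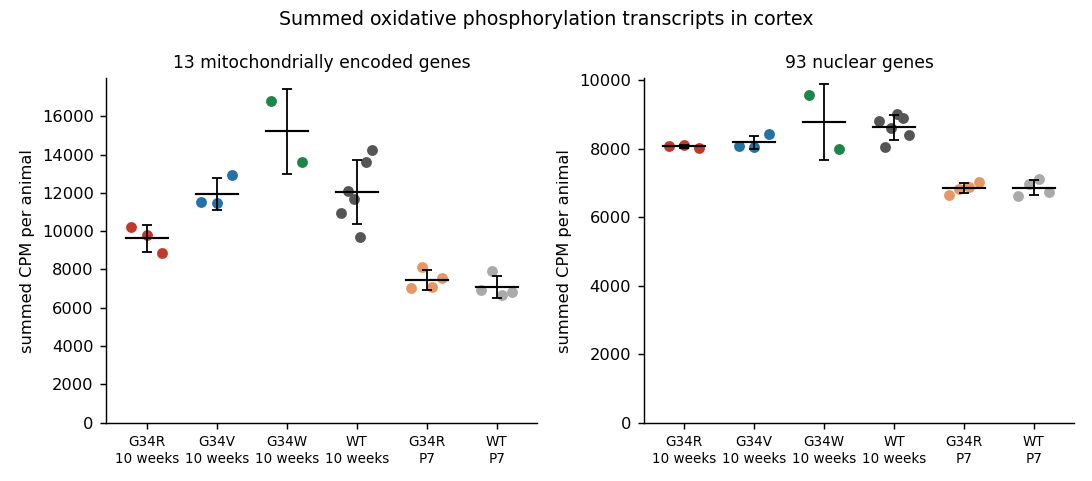
Summed CPM of the 13 mitochondrial (left) and 93 nuclear (right) members, by group; points are animals, the wide bar is the mean and the error bar the SD. Of the mitochondrial sums, 1 G34R animal at 10 weeks lies below the lowest WT animal, and all P7 animals lie below all 10-week animals in both panels.

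Libraries differed in composition. Total counts per library ran from 28414057 to 90067111; mitochondrial mRNA made up 0.732% to 1.36%, mitochondrial rRNA 1.38% to 7.67% and 7SL RNA of the signal recognition particle 5.87% to 18.2%. G34W replicate 1 stood apart, with the highest shares of 7SL RNA (18.2%) and mitochondrial rRNA (7.67%) and the lowest share of nuclear protein-coding genes (61.1%). In the deposited table the 10-week columns form 2 ascending sequences of animal numbers, the first with 3 G34R and 3 WT libraries and the second with 3 G34V, 2 G34W and 4 WT libraries; the labels give no batch. Mitochondrial mRNA was 0.885% to 1.03% of the libraries of the first sequence and 1.12% to 1.36% of those of the second, without overlap. WT replicate 3 had a library in each: 13 of 13 mitochondrial members were higher in its second library, by a median of 0.54 on the log2 scale (0.28 to 0.81), and 23 of 92 nuclear members were, with a median of -0.06. Both libraries come from the same WT animal, so this difference is not one of genotype.

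Animal numbers fall into 5 runs of consecutive numbers, each with mutant and WT libraries. G34R replicate 1 had 0.972% mitochondrial mRNA, against 1.03% in WT replicate 1, and G34R replicates 2 and 3 had 0.984% and 0.885%, against 0.935% in WT replicate 4. G34V replicates 1 and 2 had 1.12% each, against 1.19% in WT replicate 2. G34W replicates 1 and 2 had 1.36% and 1.33%, against 1.27% and 1.35% in WT replicates 5 and 6. The remaining run spans both column sequences: G34V replicate 3 had 1.23%, against 0.933% in the first and 1.27% in the second library of WT replicate 3.

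**Figure D2:**
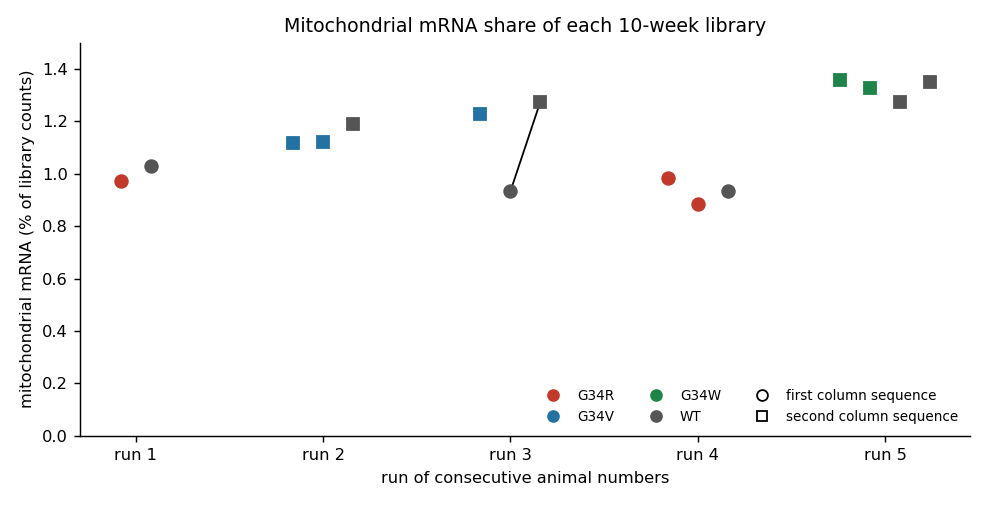
Mitochondrial mRNA as a percent of each 10-week library's counts, by run of consecutive animal numbers; colour gives the genotype, circles the first and squares the second column sequence, and the line joins the 2 libraries of WT replicate 3. Circles lie between 0.885% and 1.03% and squares between 1.12% and 1.36%, in mutants and WT alike.

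In G34R cortex at 10 weeks, 3 nuclear members were slightly lower than in WT: Ndufs1 of complex I, Uqcrb of complex III and Atp5b of complex V. They were 3 of 92 tested at an adjusted p under 0.05 (edgeR's quasi-likelihood test, Benjamini-Hochberg over all genes), with none higher, while 5.61% of all genes tested were called, 2.95% higher and 2.66% lower, so the share is near the background. Of the 92 log2 fold changes 68 were negative, with a median of -0.07, against -0.00 over all genes. By complex the median was -0.05 for complex I, -0.09 for its assembly factors, -0.03 for complex II, -0.08 for complex III, -0.10 for complex IV and -0.07 for complex V. In 12 nuclear members all G34R animals lay below all WT animals and in 4 above, where 6.06% and 6.16% of all genes did so. In bulk tissue, fewer cells of a type and less RNA per cell cannot be told apart.

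Ndufs1 (ENSMUSG00000025968, chr1:63143596-63176833, minus strand) encodes the largest subunit of complex I, which carries iron-sulphur clusters of the electron path. It had 141, 151 and 146 CPM in G34R, against a lowest of 157, a median of 166 and a highest of 175 CPM in WT. The groups did not overlap, and the log2 fold change was -0.20 ± 0.0477 (SE; adjusted p = 0.0199, edgeR). Atp5b (ENSMUSG00000025393, chr10:128083273-128090391, plus strand), the beta subunit of ATP synthase where ATP is formed, had 901, 918 and 921 CPM in G34R, against a lowest of 965, a median of 1033 and a highest of 1141 CPM in WT. Again the groups did not overlap, and the log2 fold change was -0.19 ± 0.0524 (adjusted p = 0.0395, edgeR). Uqcrb (ENSMUSG00000021520, chr13:66900617-66905378, minus strand), a small subunit of complex III, had 23.8, 27.0 and 23.0 CPM in G34R, against a lowest of 27.7, a median of 30.6 and a highest of 31.9 CPM in WT. These groups did not overlap either, and the log2 fold change was -0.31 ± 0.0752 (adjusted p = 0.0187, edgeR); 74.5% of its words were unique and 15.98% were shared with a processed pseudogene. Without G34R replicate 1, or without G34R replicate 3, 0 members were called (3.27% and 3.57% of all genes); without WT replicate 3 the count was 1, Uqcrb (4.5%), and without WT replicate 4 it was 7 (5.15%).

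Within the first column sequence, 3 G34R against 3 WT libraries, 7 nuclear members were lower and 0 higher. Of all genes 4.79% were called there in either direction, and the share called lower alone was not computed. Ndufs1 (-0.21), Ndufv1 (-0.19) and Ndufv2 (-0.19) belong to the arm of complex I that takes electrons from NADH, Uqcrc1 (-0.22) is a core protein of complex III, Cox7b (-0.22) a small subunit of complex IV, and Atp5a1 (-0.20) and Atp5b (-0.26) the catalytic head of complex V. Uqcrb was at -0.28 there with an adjusted p of 0.0865 (edgeR). The nuclear median was -0.10. With the runs of animal numbers as a block, Ndufs1, Atp5a1 and Atp5b passed (4.08% of all genes called).

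None of the 13 mitochondrial members passed edgeR's test in G34R at 10 weeks, while 6 had an unadjusted p under 0.05, as did 3851 of 21274 genes. DESeq2 called 5 lower (mt-Co1, mt-Nd4, mt-Nd5, mt-Nd6 and mt-Cytb) and 7.81% of all genes. Their median log2 fold change over all animals was -0.32, with 12 of 13 negative, and the smallest adjusted p was 0.0727, for mt-Co1 (edgeR). mt-Co1 had 6793, 6658 and 6037 CPM in G34R, against a lowest of 6691, a median of 7966 and a highest of 9632 CPM in WT. mt-Nd5, a proton-pumping subunit of complex I, had 208, 164 and 149 CPM in G34R, against a lowest of 154, a median of 239 and a highest of 288 CPM in WT. mt-Nd6, of the same proton pump and the member read from the minus strand, had 44.3, 33.8 and 33.6 CPM in G34R, against a lowest of 37.6, a median of 53.7 and a highest of 66.0 CPM in WT. In each of these 3 genes the groups overlapped at the lower end of WT.

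Within the first column sequence the mitochondrial members went both ways. There 7 of 13 log2 fold changes were positive and 6 negative, with a median of 0.04: mt-Co1 was at -0.07, mt-Nd5 at -0.08, mt-Nd6 at -0.19, mt-Cytb at -0.02 and mt-Nd1 at -0.06, while mt-Nd3 was at 0.35, mt-Atp8 at 0.22, mt-Atp6 at 0.19 and mt-Co2 at 0.14, none past the threshold. With column sequence as a block the median was 0.03, and with the runs of animal numbers as a block -0.03. All 3 G34R libraries lie in the first sequence.

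**Figure D3:**
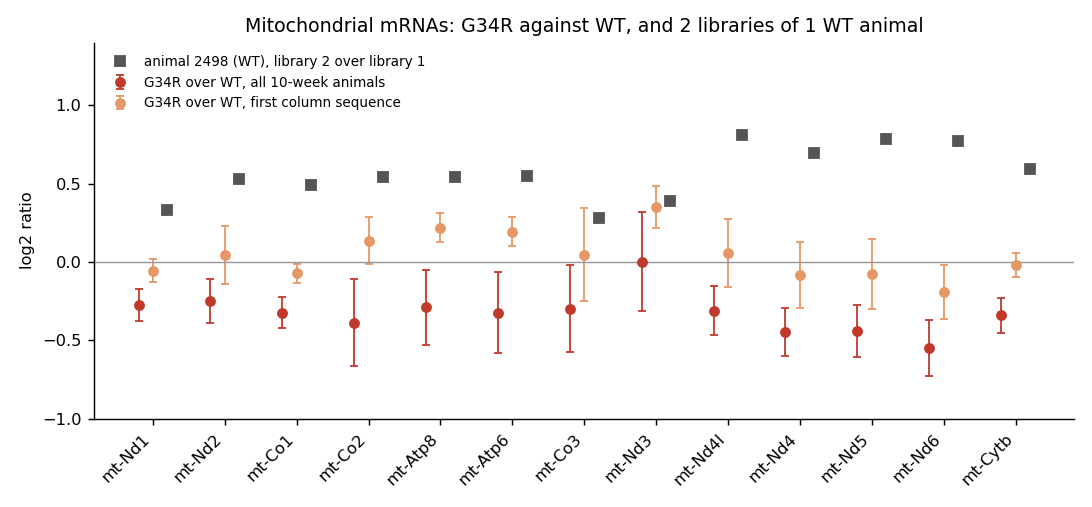
log2 ratio of each mitochondrial member, in chromosome order: G34R over WT in all 10-week animals and within the first column sequence (circles with SE bars, edgeR), and library 2 over library 1 of WT replicate 3 (squares). The median is -0.32 over all animals and 0.04 within the sequence, and the 13 squares lie between 0.28 and 0.81.

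In G34V cortex at 10 weeks, 0 of 92 nuclear and 0 of 13 mitochondrial members passed edgeR's test, with 4.25% of all genes called, 1.57% higher and 2.68% lower. At an unadjusted p under 0.05 there were 9 nuclear and 0 mitochondrial members, of 3321 genes in all, and DESeq2 called 1, Atp5sl, lower at -0.21, and 6.24% of all genes. The median log2 fold change was -0.06 for nuclear members, with 76 of 92 negative, and -0.04 for mitochondrial members. All G34V animals lay below all WT animals in 4 nuclear members and above them in 0, where 5.9% and 4.32% of all genes did so. Atp5b had 928, 955 and 950 CPM in G34V, against 965 to 1141 CPM in WT, without overlap, at a log2 fold change of -0.14 ± 0.0523 (adjusted p = 0.164, edgeR). Within the second column sequence 13 of 13 mitochondrial log2 fold changes were negative, with a median of -0.24, and mt-Nd4 passed at -0.28 (adjusted p = 0.0267, edgeR; 2.47% of all genes called).

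In G34W cortex at 10 weeks, mt-Nd5 was higher than in WT, as 1 of 13 mitochondrial members, and 0 of 92 nuclear members were called, with 1.61% of all genes called, 0.564% higher and 1.05% lower. mt-Nd5 (ENSMUSG00000064367, chrM:11742-13565, plus strand) had 457 and 402 CPM in G34W, against 154 to 288 CPM in WT. Both G34W animals lay above all WT animals, and the log2 fold change was 0.86 ± 0.180 (adjusted p = 0.0377, edgeR). The call ended without either G34W animal, without WT replicate 1, 2 or 3, with no filter, with either library of WT replicate 3 alone, with the compared groups alone and with column sequence as a block (0.67, adjusted p = 0.092). The fit with column sequence as a block took the 2 libraries of WT replicate 3 as separate samples. Over all 10-week animals the 13 mitochondrial log2 fold changes were all positive, with a median of 0.49. There mt-Nd6 was at 0.78, mt-Nd4 at 0.63, mt-Cytb at 0.40 and mt-Nd1 at 0.22, none of these past the threshold. The 2 G34W animals lay above all WT animals in 6 mitochondrial members and 1 nuclear member, where 7.54% of all genes did, and below them in 4 nuclear members, where 8.86% of all genes did. Within the second column sequence the mitochondrial median was 0.23, and mt-Nd5 at 0.67 (adjusted p = 0.00656) and mt-Nd4 at 0.45 (adjusted p = 0.0127, edgeR) passed, with 0.434% of all genes called.

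The nuclear median in G34W was 0.07 and changed sign with the animals used. Without G34W replicate 1, the library with the highest 7SL share, it was -0.09 and 0 members were called (0.309% of all genes). Without G34W replicate 2 it was 0.18 and 12 nuclear members were called higher (2.68% of all genes were called), among them Uqcrq of complex III (0.56), Atp5e of complex V (0.53) and Ndufb8 of complex I (0.63), chosen after their values were seen. The part of library composition in these values was not tested.

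**Figure D4:**
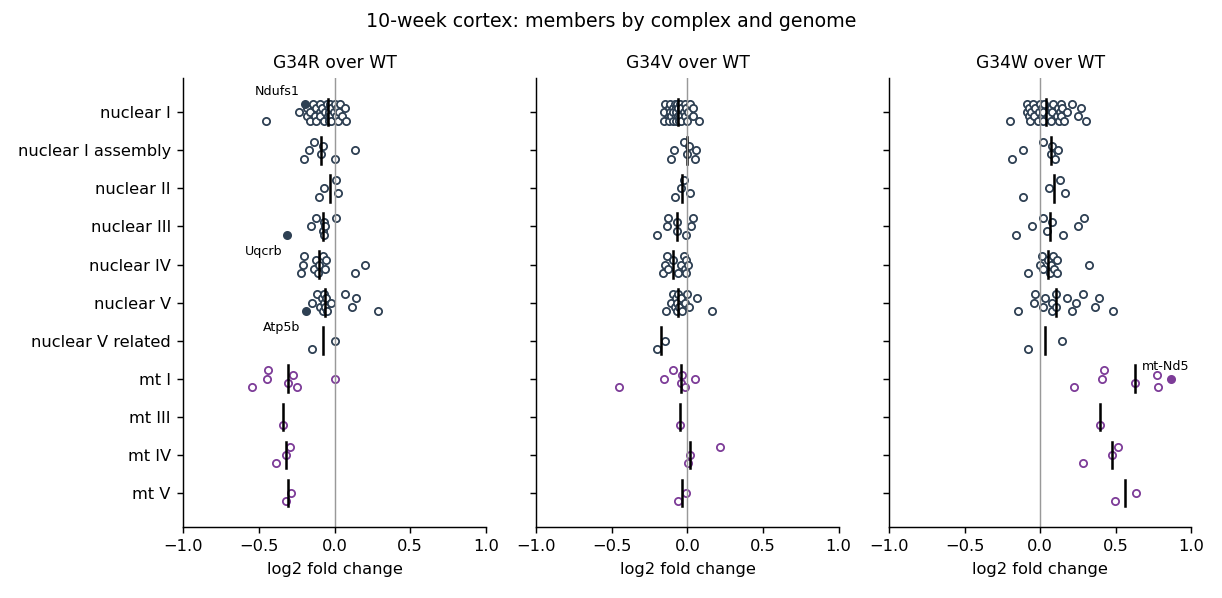
log2 fold change of each member against WT at 10 weeks for G34R, G34V and G34W, by complex and genome; filled points passed an adjusted p of 0.05 (edgeR), bars are medians over all tested members of a row, and the low isoforms Cox4i2, Cox6a2, Cox6b2, Cox7a1, Cox7b2, Cox8b and Ndufa4l2 are not drawn. Nuclear medians over all complexes are -0.07, -0.06 and 0.07, and mitochondrial medians -0.32, -0.04 and 0.49, in the 3 panels from left to right.

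Between substitutions, 6 members were lower in G34R than in G34W, with 1.88% of all genes called, 0.945% higher and 0.935% lower: mt-Nd5 (-1.30), mt-Nd6 (-1.33), mt-Nd4 (-1.07), mt-Cytb (-0.74), mt-Co1 (-0.61) and, of the nuclear members, Ndufb2 (-0.49), an accessory subunit of complex I. G34R lies wholly in the first and G34W wholly in the second column sequence, so this difference also sets libraries of one sequence against the other; WT libraries lie in both, and with the runs as a block 0 members and 0.0893% of all genes were called. Without G34R replicate 2 the count was 1 (0.556% of all genes called), without G34R replicate 3 it was 2 (0.784%), without G34W replicate 1 it was 0 (0.949%) and without G34W replicate 2 it was 23 (2.31%). G34R and G34V differed in 0 members (edgeR, 0.23% of all genes called, 0.174% higher and 0.0564% lower; 8 at an unadjusted p under 0.05, of 2316 genes in all), and G34V and G34W in 0 (0.15% called, 0.0376% higher and 0.113% lower; 17 at an unadjusted p under 0.05, of 2486 genes in all, and 3 by DESeq2, which called 1.42% of all genes). All G34R animals lay below all G34V animals in 9 mitochondrial and 12 nuclear members and above in 0 and 7, where 9.41% and 9.24% of all genes did so. They lay below both G34W animals in 13 mitochondrial and 20 nuclear members and above in 0 and 2 (16.5% and 16.9% of all genes), and G34V lay below G34W in 12 and 11 and above in 0 and 2 (13.8% and 13.6%). These mutant groups differ in column sequence or hold 2 animals.

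At P7, 0 of 90 nuclear and 0 of 13 mitochondrial members differed between G34R and WT (edgeR, 0.308% of all genes called, 0.112% higher and 0.196% lower), with 4 nuclear and 0 mitochondrial members at an unadjusted p under 0.05, of 1585 genes in all, and 0 by DESeq2. The median log2 fold change was 0.03 for nuclear and 0.12 for mitochondrial members. All G34R animals lay above all WT animals in 1 nuclear member and below in 1, where 2.28% and 2.92% of all genes did so. Ndufs1 had 104, 112, 109 and 113 CPM in G34R, against 97.1, 106, 107 and 103 CPM in WT, overlapping groups. Its G34R effect at 10 weeks minus that at P7 was -0.28 ± 0.0639 on the log2 scale (adjusted p = 0.0299, edgeR), as 1 of 105 members tested, with 1.16% of all genes called, 0.562% higher and 0.602% lower; leaving out any 1 of 6 animals ended that call. mt-Nd5 had 192, 267, 177 and 231 CPM in G34R, against 190, 240, 167 and 195 CPM in WT at P7, also overlapping.

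Age changed far more. In WT cortex 60 of 92 nuclear members were higher at 10 weeks than at P7 and 9 were lower, and 9 of 13 mitochondrial members were higher and 1 lower (edgeR, adjusted p under 0.05). Of all genes 67.7% were called, 33.3% higher and 34.4% lower, so the share of members called is near the background and the split towards higher is not. The nuclear median log2 fold change was 0.30, against -0.01 over all genes. In 49 nuclear and 4 mitochondrial members all 10-week animals lay above all P7 animals, and in 5 and 1 below, where 26.6% and 28.0% of all genes did so. Age coincides with separate sets of libraries and with the mix of sexes.

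In complex I, 26 of 36 nuclear subunits were higher and 2 lower. Ndufs1 (0.69 ± 0.0420), Ndufs7 (0.84 ± 0.0572) and Ndufb3 (0.70 ± 0.0538) had the smallest adjusted p, 4.09e-13, 3.18e-12 and 3.53e-11 (edgeR); Ndufs7 carries the iron-sulphur cluster next to ubiquinone. Ndufv3, an accessory subunit of the NADH-binding arm, was lower, at 42.5 ± 2.39 CPM at 10 weeks, against 57.1 ± 3.06 CPM at P7, a log2 fold change of -0.43. Of the 7 assembly factors Ndufaf1 (0.63) and Ndufaf3 (0.38) were higher and 0 lower. In complex III 5 of 8 were higher, led by Uqcrh (0.64), Uqcrc2 (0.53) and Uqcrc1 (0.31), and Uqcrb (-0.18) was lower, a call that ended with 10-week WT libraries of either column sequence alone.

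In complex II the subunits moved apart. Sdha (ENSMUSG00000021577, chr13:74322254-74350280, minus strand), the flavoprotein that oxidises succinate, had a lowest of 355, a median of 377 and a highest of 397 CPM at 10 weeks, against 170, 172, 184 and 173 CPM at P7. The ages did not overlap, and the log2 fold change was 1.10 ± 0.0443 (adjusted p = 1.56e-16, edgeR), the smallest adjusted p among the members. Sdhc, a membrane anchor, was higher by 0.20, and Sdhb, the iron-sulphur subunit, was at 0.06 (adjusted p = 0.306, edgeR). Sdhd (ENSMUSG00000000171, chr9:50596357-50603812, minus strand), the other anchor, had 52.7 to 68.0 CPM at 10 weeks, against 67.1, 71.0, 73.3 and 64.4 CPM at P7, overlapping groups with a log2 fold change of -0.18 ± 0.0652 (adjusted p = 0.0194, edgeR). It was -0.08 (adjusted p = 0.331) with 10-week WT libraries of the first column sequence and -0.24 (adjusted p = 0.00275, edgeR) with those of the second, and the call also ended without WT replicate 2 at 10 weeks (-0.14) and without WT replicate 2 (-0.16) or 3 (-0.15) at P7.

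The sequences before the start of Sdha and Sdhd are printed because these subunits of 1 enzyme differed in opposite directions over all WT animals. They come from RefSeq (GRCm38.p6), 150 bases each without bases inside the M21 gene, and capitals mark words known as binding sites of NRF1 (GCGCA, any base, then GCGC) and ETS factors (CCGGAAG or its reverse complement).
Sdha (chr13:74350281-74350430, minus strand): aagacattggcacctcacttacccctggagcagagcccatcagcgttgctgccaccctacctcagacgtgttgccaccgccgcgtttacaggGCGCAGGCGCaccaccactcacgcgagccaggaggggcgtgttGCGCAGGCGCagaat
Sdhd (chr9:50603850-50603999, minus strand): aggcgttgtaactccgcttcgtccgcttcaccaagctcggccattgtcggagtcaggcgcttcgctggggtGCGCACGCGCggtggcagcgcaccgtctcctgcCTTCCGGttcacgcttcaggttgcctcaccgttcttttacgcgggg
The stretch before Sdha holds the NRF1 word 2 times, and that before Sdhd holds the NRF1 word and, as its reverse complement, the ETS word. Of the 93 nuclear members 73 had an entry in the RefSeq promoter table (250 bases before to 50 after the start), and both strands were searched. The NRF1 word was in 18 (24.7%), against 4.78% of 27025 promoters, and the ETS word in 16 (21.9%), against 9.12%. The YY1 word AAGATGGCG was in 6 (8.22%), against 1.49%, and the estrogen-related receptor word TCAAGGTCA in 2 (2.74%), against 0.407%. These 2 were Atp5g3 and Sdhd, in Sdhd outside the stretch printed, and Sdha had none. A match is a description of the letters, not of binding.

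Complex IV had 13 of 19 tested nuclear members higher and 2 lower. Cox8a (0.92 ± 0.0596, adjusted p = 1.38e-12, edgeR) averaged 232 ± 17.2 CPM at 10 weeks, against 123 ± 7.81 CPM at P7, and Cox4i1 (0.73) 375 ± 25.0 CPM, against 227 ± 3.91 CPM. Cox7c, another small subunit, had 5.83 to 6.73 CPM at 10 weeks, against 14.2, 15.6, 16.3 and 14.1 CPM at P7. These ages did not overlap, and the log2 fold change was -1.24 ± 0.0885 (adjusted p = 7.91e-12, edgeR); 77.9% of its words were unique. In complex V 10 of 16 were higher, among them Atp5j (0.62), Atp5h (0.46), Atp5b (0.31) and Atp5a1 (0.30), and Atp5g1 (-0.42), Atp5o (-0.19) and Atp5d (-0.18) were lower.

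Isoforms known from muscle or testis stayed far below their partners in cortex at both ages. Cox6a2 averaged 3.29 CPM at 10 weeks and 1.63 CPM at P7, against 169 and 150 CPM for Cox6a1; both were higher at 10 weeks, by 1.01 ± 0.170 and 0.17 ± 0.0549. Cox4i2, known from lung, averaged 1.10 and 0.766 CPM (0.49, adjusted p = 0.0661, edgeR). Cox7a1 was higher by 0.82 at 0.997 CPM, against 0.575 CPM, as were Cox7a2 (0.27) and Cox7a2l (0.36). Cox7b2 was higher by 1.67 ± 0.521 at 0.267 CPM, against 0.0854 CPM, and Cox7b by 0.20. Cox6b2 was at -0.57 (adjusted p = 0.0718) and Cox6b1 at -0.09 (adjusted p = 0.120, edgeR), neither past the threshold.

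Cox8b, the muscle partner of Cox8a, gave 153 counts over the 6 WT animals at 10 weeks (3 to 56 each) and 0 counts in every P7 animal of either genotype. Against 3 counts over the WT P7 group, the limit that a count of 0 allows, its pooled 0.450 CPM at 10 weeks was at least 27.0-fold higher, with counting error only. Cox8c had 0 counts in every library. Atp5g1, Atp5g2 and Atp5g3 encode the same mature ring subunit of complex V: Atp5g1 was lower, at 44.6 CPM at 10 weeks, against 59.8 CPM at P7, Atp5g3 was higher by 0.16, at 126 CPM, against 113 CPM, and Atp5g2 was higher by 0.58, at 2.19 CPM, against 1.47 CPM, with 61.7% of its words unique. Ndufa4, a complex IV subunit despite its name, was higher by 0.27, and its relative Ndufa4l2 was lower (-0.69), at 1.27 CPM, against 2.02 CPM.

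**Figure D5:**
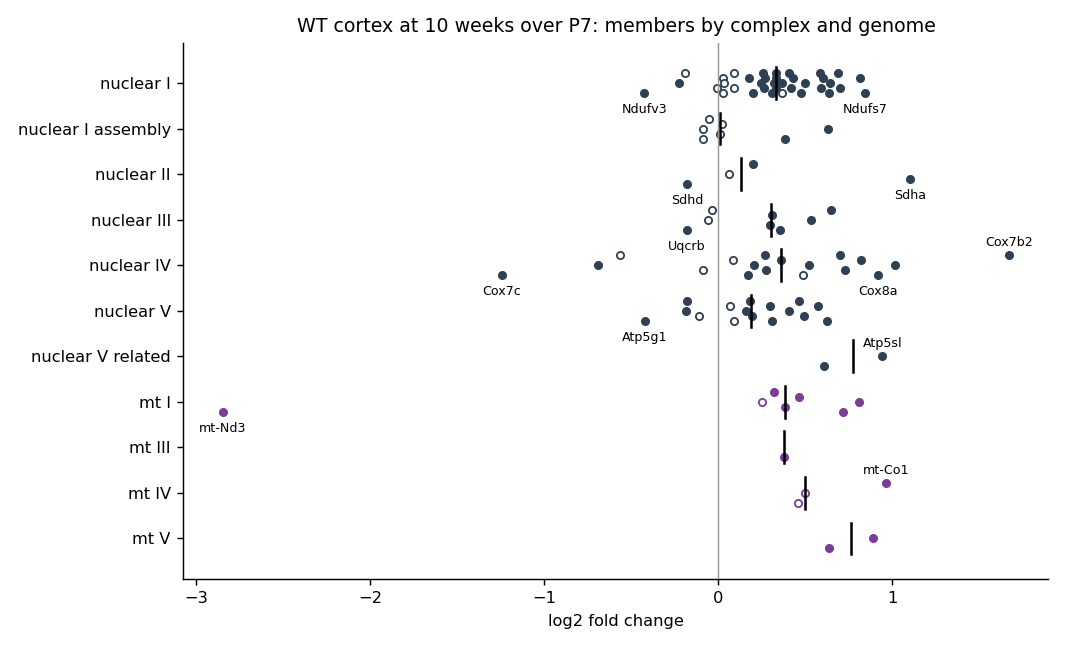
log2 fold change of each member in WT cortex at 10 weeks over P7, by complex and genome; filled points passed an adjusted p of 0.05 (edgeR), bars are medians over all tested members of a row, and Cox8b, with 0 counts at P7, is not drawn. Cox7c at -1.24 and mt-Nd3 at -2.85 lie farthest left, and Sdha at 1.10 and Sdhd at -0.18 lie on opposite sides of 0.

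The mitochondrial members also split with age. mt-Co1 had 6691 to 9632 CPM at 10 weeks, against 4045, 4576, 3994 and 4036 CPM at P7, without overlap (0.96 ± 0.0832). It made up a median of 67.6% of the members' mitochondrial counts in WT libraries at 10 weeks, against 58.8% at P7. Of the words of mt-Co1 48.9% were unique, and 0% to 0.475% of those of mt-Co2, mt-Co3 and mt-Atp6, so this share is uncertain. Among genes with mostly unique words and outside the span of the block, mt-Nd2 (0.81), mt-Nd1 (0.72), mt-Nd6 (0.38) and mt-Cytb (0.38) were higher. There mt-Nd5 was at 0.25 (adjusted p = 0.164, edgeR). mt-Atp8 was also higher (0.63), but it lies between mt-Co2 and mt-Atp6, so its level is uncertain too.

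mt-Nd3 (ENSMUSG00000064360, chrM:9459-9806, plus strand), a small subunit of complex I, had 20.3 to 53.3 CPM at 10 weeks, against 236, 260, 253 and 246 CPM at P7. The ages did not overlap, and the log2 fold change was -2.85 ± 0.237 (adjusted p = 8.01e-09, edgeR). In G34R it had 38.1, 34.2 and 31.5 CPM at 10 weeks, against 214, 271, 290 and 288 CPM at P7. Of its neighbours on the chromosome, mt-Co3 was at 0.50 (adjusted p = 0.0570) and mt-Nd4l at 0.32 (adjusted p = 0.0385, edgeR). Their copies in the chromosome 1 block had no substitution, while that of mt-Nd3 had T3C. The part of the copies in these values was not tested.

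The size of the mitochondrial change with age moved with the column sequence of the 10-week libraries. With WT libraries of the first sequence the mitochondrial median was 0.13, and with those of the second 0.77. mt-Co1 was at 0.74 with the first and 1.13 with the second, mt-Nd1 at 0.52 and 0.85, mt-Cytb at 0.09 and 0.57, mt-Nd5 at -0.08 and 0.46, and mt-Nd3 at -3.17 and -2.69. The nuclear median was 0.33 and 0.28.

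Other energy genes gave some calls in the mutants at 10 weeks. Of all genes 5.61% were called in G34R, 4.25% in G34V and 1.61% in G34W. In G34R at 10 weeks 2 of 17 genes of the tricarboxylic acid cycle were lower and 0 higher: Dlst (-0.17 ± 0.0461, adjusted p = 0.0337) and Dld (-0.19 ± 0.0505, adjusted p = 0.0359, edgeR), both of the 2-oxoglutarate dehydrogenase complex; Dlst was also lower in G34W (-0.24, adjusted p = 0.0349, edgeR). Of 34 other assembly factors, Ttc19 of complex III was lower (-0.33 ± 0.0530), at 76.6 CPM in G34R, against 95.9 CPM in WT, and Cox18 of complex IV higher (0.59 ± 0.0975), at 9.45 CPM, against 6.26 CPM; in G34V Lyrm7 was lower (-0.51). Of 24 carriers and electron shuttles, Gpd2 (-0.34) and the ADP/ATP carrier Slc25a5 (-0.27) were lower, and in G34V Slc25a13 was (-0.54). Of 14 regulators of mitochondrial biogenesis Nfe2l2 was higher (0.43) and Pparg lower (-0.58) in G34R, and Pparg was also lower in G34V (-0.58, adjusted p = 0.0463, edgeR). Of 20 genes that express mitochondrial DNA, 0 were called in G34R and 2 were higher in G34V, Polg (0.23) and Pnpt1 (0.28). Of 12 uncoupling and antioxidant genes, Cat (-0.24) and Prdx3 (-0.22) were lower in G34V. Glycolysis had 0 of 16 genes called in each comparison of a mutant with WT.

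With age 67.7% of all genes were called, 33.3% higher and 34.4% lower. There 14 of 16 glycolysis genes were higher and 0 lower, with a median of 1.11, against 0.30 for the nuclear members. Eno2, the neuronal enolase, was at 1.85 and Aldoc at 2.06. The tricarboxylic acid cycle had 13 of 17 higher and 2 lower (median 0.33), and carriers and shuttles 15 of 24 higher and 5 lower (median 0.20). Cycs, cytochrome c, which links complexes III and IV, was among the lower ones, at 16.8 CPM at 10 weeks, against 49.2 CPM at P7 (-1.55 ± 0.0592). Genes that express mitochondrial DNA had 6 of 20 higher and 7 lower. Other assembly factors had 20 of 34 higher and 5 lower, uncoupling and antioxidant genes 8 of 12 higher and 4 lower, and biogenesis regulators 9 of 14 higher and 4 lower, with Esrra at 0.90 and Pprc1 at -0.88. Cytosolic ribosomal proteins had 4 of 32 higher and 17 lower (median -0.26).

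Markers of cell types moved with these comparisons. The share of all genes called was 5.61% in G34R, 4.25% in G34V and 1.61% in G34W at 10 weeks, and 0.308% in G34R at P7. With age in WT it was 67.7%. Of 9 microglial markers 8 were higher in G34R, 5 in G34V and 1 in G34W at 10 weeks, and 3 in G34R at P7; their summed level was 634 to 705 CPM in G34R, 456 to 567 in G34V, 414 to 454 in G34W and 364 to 405 CPM in WT at 10 weeks. Of 9 astrocyte markers 1, Gfap, was higher in G34R (1.82), G34V (0.84) and G34W (0.51) and 0 were lower, while the medians over the 9 were 0.12, 0.01 and 0.16. Of 9 oligodendrocyte markers 0 passed in G34R, 4 were lower in G34V and 2 in G34W, and 9 were higher in WT at 10 weeks than at P7; they summed to 3259 to 4199 CPM in G34R, 2708 to 3528 in G34V, 2930 to 4449 in G34W and 4319 to 5660 CPM in WT at 10 weeks, and to 193 to 248 CPM in WT at P7. Markers of excitatory neurons summed to 2124 to 2340 CPM in G34R, 2207 to 2474 in G34V, 2265 to 2636 in G34W and 2322 to 2464 CPM in WT. Of these 10 markers 2 were lower in G34R, Fezf2 (-0.58) and Neurod6 (-0.35), and 0 higher. In G34V Slc17a6 was lower (-0.51) and Rorb higher (0.34), and in G34W Neurod6 was lower (-0.67) and Rorb higher (0.39). Choroid plexus markers ranged from 15.9 to 206 CPM in G34W and from 154 to 954 CPM in WT, and striatal markers from 613 to 741 CPM in G34W and from 306 to 719 CPM in WT. Between ages in WT, excitatory neuron markers had 2 of 10 higher at 10 weeks and 7 lower, and interneuron markers 7 of 8 higher and 1 lower. Microglial markers had 7 of 9 higher and 0 lower, and astrocyte markers 5 of 9 higher and 2 lower. Markers of oligodendrocyte precursors had 1 of 7 higher and 6 lower, and endothelial markers 3 of 7 higher and 2 lower. The part of these cells in the oxidative phosphorylation values was not tested.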

How the data were processed

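Total RNA of pulverised cortex was sequenced after rRNA depletion, per the labels' protocols. The deposited table holds whole-number read counts per gene for 23 libraries of 22 animals, which the authors did not normalize. Per the submitters' processing notes, Trimmomatic 0.32, STAR 2.3.0e, bedtools 2.27.1, featureCounts 1.4.4 and mm10 were used; no source used here states the annotation release or the strand setting. Rows of 175 genes were left out, those of the Y chromosome with Xist and Tsix. Other X-linked genes stayed in, among them the members Ndufa1, Ndufb11 and Cox7b. Fits used edgeR 4.0.16 in R 4.3.3 (TMM, filterByExpr, robust quasi-likelihood) on 14 animals at 10 weeks (21274 genes), 8 at P7 with sex as covariate (20451) and all 22 (22417). CPM are on 1 TMM scale over the 22 animals. SE is the log2 fold change over the square root of F. SD and SE are over animals, except that fits within a column sequence or with it as a block used libraries. With it as a block, WT replicate 3 at 10 weeks entered with 2 libraries. The limit given for Cox8b covers counting error only. Of the 93 nuclear members 92 were tested at 10 weeks and 90 at P7. Names, positions and word searches come from GENCODE M21 (37693 of 39017 IDs matched).

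The members, gene lists and marker lists were chosen with earlier results of these data known. Named genes were all mitochondrial members, nuclear members called in a mutant, per complex the 3 with the smallest adjusted p and the 2 highest per kb, the paired isoforms and up to 3 genes per list; others were named after their values were seen. Comparisons with WT at 10 weeks share their WT animals. Alternatives were DESeq2 1.42.0, RLE scaling, no filter, other scaling genes, each library of WT replicate 3, blocks, fewer groups, males only, no sex covariate and leaving out each animal; those on column sequence and on nuclear protein-coding scaling were chosen after seeing the data.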

Additional observations from a re-analysis of the deposited data

Results flagged for a closer look

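In WT cortex at P7, replicate 2 stood apart from the other 3 animals in the summed mitochondrial genes of complex IV, at 4783 CPM against 4195 to 4288 CPM, and in mt-Co1, at 4576 CPM against 3994 to 4045 CPM. Replicate 3 of the same group stood apart in Atp5a1, at 708 CPM against 669 to 674 CPM. These were 3 of 120 group checks, where chance gives about 1 in 20. The G34R effect on Ndufs1 differed between ages, by -0.28 on the log2 scale at 10 weeks relative to P7.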

How the results depend on the processing

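Percentages in brackets give the share of all genes called in the same fit. The count of members called in G34R over WT at 10 weeks was 3 (5.61%). It was 10 with DESeq2 (7.81%), 7 with libraries of the first column sequence only (4.79%), and 0 to 7 without 1 animal (3.27% to 5.15%). In G34V over WT it was 0 (4.25%). DESeq2 (6.24%), the runs of animal numbers as a block (Cox8b at 2.73, 1.95%) and the second column sequence only (2.47%) gave 1 each. Leaving out 1 animal gave 0 (2.33% to 4.04%). In G34W over WT it was 1 (1.61%), 4 with DESeq2 (4.24%) and 2 within the second column sequence (0.434%). The count was 0 with no filter (1.15%) and with library 1 (1.47%) or library 2 (1.34%) of WT replicate 3 only. Only the compared groups (0.698%) and column sequence as a block (0.59%) also gave 0, the latter with the 2 libraries of WT replicate 3 as separate samples. Without 1 animal it was 0 to 12 (0.309% to 2.68%), with 0 without WT replicate 1 (1.03%), 2 (1.54%) or 3 (1.13%) and 3 without WT replicate 4 (1.23%). G34R over G34V gave 1 (mt-Co1, 0.844%) in place of 0 (0.23%) with only the compared groups. G34R over G34W gave 3 (1.35%) in place of 6 (1.88%) with library 1 of WT replicate 3 only. It gave 0 with the runs as a block (0.0893%), and 0 to 23 without 1 animal (0.556% to 2.31%). G34V over G34W gave 3 (1.42%) in place of 0 (0.15%) with DESeq2 and 2 with only the compared groups (0.108%). Without 1 animal it gave 0 to 14, the 14 without G34W replicate 2 (1.37%). For the change of the G34R effect with age, the count was 0 in place of 1 (1.16%) with no filter (0.746%) and with males only (0.511%). Without 1 animal it was 0 to 1 (0.594% to 1.26%), ending without G34R replicate 1 or 3 at 10 weeks, G34R replicate 2 or 4 at P7 and WT replicate 1 or 4 at P7. With age the count was 79 (67.7%), and 72 to 83 without 1 animal (64.3% to 66.9%). mt-Nd4l between ages was at -0.022 with WT libraries of the first column sequence only, against 0.32. RLE scaling, and scaling by genes outside the mitochondrial chromosome and rRNA or by nuclear protein-coding genes, kept every count within 1.5 times of that reported. The cause of these shifts was not tested. No paired analysis by replicate number was possible because the labels give none shared between groups; the runs of animal numbers were used as a block instead. Depth limits Cox7b2 and Cox8b, and 2 G34W animals limit every G34W value.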
